A study of Rattus norvegicus with 12 samples.

Results

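The question here was which gene responses to 3 corticosteroids remained in heart muscle cells when the glucocorticoid receptor antagonist RU486 was already present. The arrays were chosen by their labels as the RU486 arrays of the second experiment, 4 of the 12 arrays of the study. They are RU486 alone, cortivazol with RU486 (CVZ+RU486), corticosterone with RU486 (COR+RU486) and aldosterone with RU486 (ALD+RU486), and each of the last 3 was compared with RU486 alone. Genes were then described by whether they lay above or below RU486 alone with all 3 ligands or with 1 ligand only.

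Heart ventricles of Wistar rats aged 1 day gave the cells, cardiomyocytes grown in primary culture, separated from the more adherent fibroblasts and kept for 24 h in OPTI-MEM. They received ethanol vehicle, CVZ, COR or ALD for 3 h, without RU486 in both experiments (n = 2 arrays in each group) and after pretreatment with 10 µM RU486 in the second experiment (n = 1 array in each group). The labels give no ligand doses, so a difference between ligands here need not be one at matched doses. Such cultures keep some non-muscle cells, the labels do not say how many hearts were pooled, and nothing says that the experiments were separate cell preparations, so a p-value here reflects how far these arrays scatter, which may be technical.

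Cortivazol is a synthetic glucocorticoid, corticosterone is the main glucocorticoid of the rat and aldosterone is its mineralocorticoid. Glucocorticoids act through the glucocorticoid receptor (GR, gene Nr3c1), which binds DNA at glucocorticoid response elements and raises or lowers nearby genes. Corticosterone and aldosterone also bind the mineralocorticoid receptor (gene Nr3c2), which cardiomyocytes carry, and aldosterone at high dose can bind the GR. RU486 occupies the GR and the progesterone receptor and prevents most of their transcriptional activation, although it can itself act as a weak agonist at some genes.

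Signals are given relative to the median of the array, which is 1. Differences are log2(signal + 0.0696) with the standard error of limma's fit, whose adjusted p-values are Benjamini-Hochberg values over 18625 probe sets (10082 named genes). Because each RU486 group was a single array, its spread was taken from the groups with 2 arrays, and the median 95% interval of a single-ligand difference reached 0.59 to either side. An exact permutation test of 3 arrays against 1 cannot go below p = 0.5. All 3 comparisons use the same RU486 array, so a gene that was low or high on that array moves in all 3 together.

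Markers of the labelled cell type were measured on all 4 arrays. The 14 measured cardiomyocyte markers summed to 2652 on the RU486 array and to 2401, 2416 and 2433 on the CVZ+RU486, COR+RU486 and ALD+RU486 arrays. The 11 fibroblast markers summed to 193, 184, 197 and 182. Macrophage markers summed to between 12.2 and 14.3 on the 4 arrays. Sums of different lists rest on different probe sets and give no cell shares. Array medians before division were not given and were inferred from the step size of the values. They were similar on the 4 arrays, 35.4 to 37.7, above the 21.1 to 33.7 of the other 8. What this had to do with any result was not tested.

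Few single genes passed the test once RU486 was present. With CVZ 1 probe set fell (0.00537% of those tested, Cebpd), with ALD 1 unnamed probe set fell (0.00537%), with COR 0 changed (0%), and for the mean of the 3 ligands 0 changed (0%). At an unadjusted p under 0.05 the counts were 531 (2.85%), 421 (2.26%), 439 (2.36%) and 462 (2.48%) in the same order. With no response at all that threshold would by itself pass a larger share. Leaving out 1 array of a ligand-free or ligand-only group changed the small counts of calls. CVZ gave 3 and 5 calls without the vehicle array of the first and second experiment and 4 without either ALD array. ALD gave 2 without the vehicle array of the second experiment and 0 without the COR or the ALD array of the first. For the mean of the 3 ligands, Kdr, Fkbp5 and an unnamed probe set rose without either vehicle array (3 calls), and Sh2b1 without either ALD array (1 call). Without RU486 the same fit called 1483 probe sets for CVZ (7.96%), 632 for COR (3.39%) and 177 for ALD (0.95%). Those groups had 2 arrays each, so the counts with and without RU486 did not have the same power. On simulated data with this design, 42% of changes of log2 1 and 81% of changes of log2 2 were recovered for CVZ+RU486 against RU486.

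The interaction test, over arrays with and without RU486, asks whether the response to a ligand differed with RU486. It differed at 455 probe sets for CVZ (2.44%), of which 363 were lower with RU486 and 92 higher. Lower and higher refer to the signed difference, so a fall that shrank counts as higher. Among probe sets that CVZ alone had raised, the rise was called smaller with RU486 at 355 and larger at 0. Among those it had lowered, the fall was called smaller at 87 and larger at 0. It differed at 91 for COR (0.489%), 85 of them lower, and at 15 for ALD (0.0805%), all 15 lower. For the mean of the 3 ligands 203 probe sets differed (1.09%), 180 of them lower. Each of these 4 counts was 0 when the experiment was not used as a block, and also when limma's variance prior had no mean-variance trend. Without the CVZ+RU486 array the last count was 54, and without the ALD+RU486 array it was 355. Without the COR array of the first experiment the COR count was 43.

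Genes raised by the steroids without RU486 lay above RU486 alone more often than other genes did. The mean of the 3 ligands raised 692 probe sets against vehicle and lowered 321 (1013 called, 5.44%; 643 and 635 without the vehicle array of the first and second experiment). This choice compared none of the 4 RU486 arrays, although the filter on low values used all 12 arrays. The p-values with RU486, however, take their spread from the same arrays without RU486 that made the choice. Probe sets of small spread are called more readily. Shares at an unadjusted p, here and in the sets below, are therefore not independent of the choice. Of the 692, 273 lay above RU486 alone with all 3 ligands (39.5%, against 20.8% of all probe sets tested). For the mean, 58 of them lay above at an unadjusted p under 0.05 (8.38%, against 1.17%) and 11 below (1.59%, against 1.32%). The median difference was 0.77 without RU486 and 0.04 with it. For most of them the value with RU486 was therefore near that of RU486 alone.

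It was larger among the genes that had responded most. There were 41 probe sets of 23 named genes raised at least 4-fold without RU486. With RU486 31 of the 41 lay above RU486 alone with all 3 ligands (75.6%, against 20.8%), 20 at an unadjusted p under 0.05, and 10 lay at least 1.5-fold above with all 3 (24.4%, against 0.891%). Their median difference was 2.53 without RU486 and 0.41 with it. By ligand the medians with RU486 were 0.38 for CVZ, 0.51 for COR and 0.52 for ALD. When the set was drawn without the vehicle array of the second experiment, 48.6% of 70 probe sets lay above with all 3. RU486 alone was itself above the vehicle array of the same experiment at 39 of the 41 (95.1%, against 60.4%), with a median of 0.76, a comparison that shares the vehicle array with the choice of the set.

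**Figure D1:**
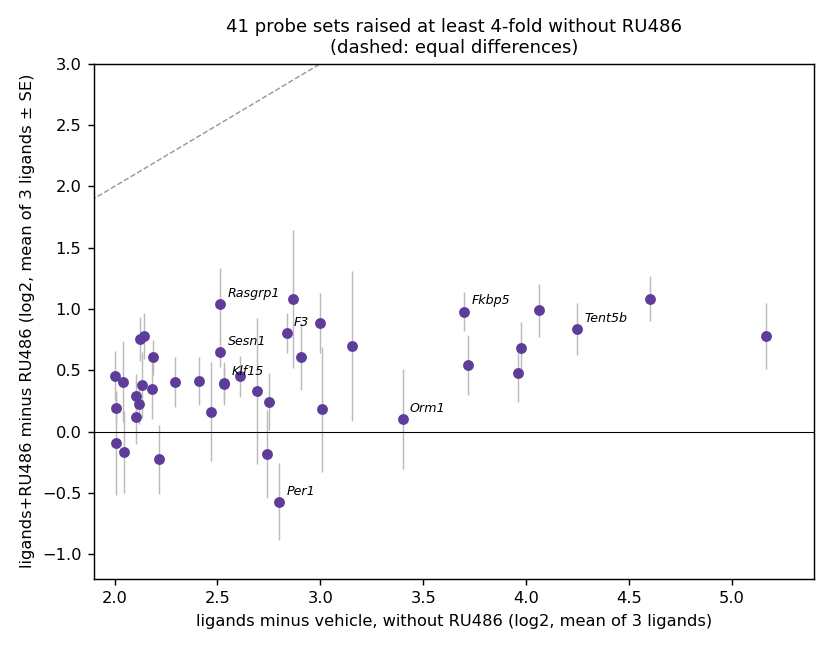
Each point is 1 of the 41 probe sets raised at least 4-fold by the steroids without RU486. The horizontal axis is the mean log2 difference of the 3 ligands from vehicle, the vertical axis that of the 3 ligand+RU486 arrays from RU486 alone with its standard error, and the dashed line marks equal differences. Every point lies below the dashed line, and most lie between 0 and about 1.

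The steroid-raised genes described next were chosen after their values were seen, by the smallest of their 3 differences from RU486 alone. Fkbp5, which codes for a co-chaperone that lowers the hormone affinity of the GR, stood at 2.40 with RU486 alone and at 4.25, 4.85 and 5.33 with CVZ, COR and ALD on top. Without RU486 in the same experiment it stood at 2.17 with vehicle and at 43.8, 28.2 and 13.4 with the ligands. All 3 ligand+RU486 arrays were thus above both controls and below every ligand array, and the order of the ligands was turned round, although no difference between the ligands with RU486 passed the test (limma adjusted p = 1). The mean difference from RU486 alone was 0.98 ± 0.16, or 1.97-fold (limma adjusted p = 0.24), and the response was smaller with RU486 by a log2 of -2.72 ± 0.19 (limma adjusted p = 2.3e-06). A further Fkbp5 probe set stood at 1.27 with RU486 and at 1.31, 2.01 and 2.18 on top, so there the CVZ+RU486 array was not separated from RU486.

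Kdr, the main VEGF receptor of blood vessel endothelium, stood at 2.30 with RU486 alone and at 4.10, 5.77 and 5.00 with CVZ, COR and ALD. Vehicle stood at 2.45 in that experiment and the 3 ligands at 12.5, 13.0 and 8.86. All 3 ligand+RU486 arrays again lay between the controls and the ligand arrays of that experiment, although the vehicle array of the first experiment, at 4.93, was above the CVZ+RU486 array. The mean difference was 1.07 ± 0.22, or 2.10-fold (limma adjusted p = 0.30), and the loss of response with RU486 was -0.67 ± 0.27 (limma adjusted p = 0.44). Kdr is also an endothelial marker, and the other 7 measured endothelial markers summed to 10.2 on the RU486 array and to 9.63, 9.10 and 10.6 on the others. The sum without Kdr was thus above RU486 alone on 1 of the 3 arrays.

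F3 codes for tissue factor, the receptor that starts blood coagulation. It stood at 2.98 with RU486 alone and at 5.73, 5.08 and 4.95 with CVZ, COR and ALD, while vehicle stood at 1.45. RU486 alone was therefore 2.01-fold above vehicle on single arrays, and the ligands added 0.80 ± 0.16 (limma adjusted p = 0.30). Without RU486 the ligand arrays stood at 20.2, 12.1 and 6.64.

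Sesn1, a sestrin that restrains mTORC1 signalling, had the same pattern on both of its probe sets. The brighter stood at 11.6 with RU486 alone and at 17.0, 18.5 and 19.3 with CVZ, COR and ALD, against 5.74 with vehicle. The dimmer stood at 3.80 with RU486 and at 5.83, 6.96 and 6.94 on top. The mean differences were 0.65 ± 0.12 (limma adjusted p = 0.24) and 0.78 ± 0.19 (limma adjusted p = 0.61). All 3 ligand+RU486 arrays lay above RU486 alone on both probe sets, as 20.8% of all probe sets tested did. For the brighter probe set the choice of the gene had required this.

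Klf15, a transcription factor of amino acid and lipid metabolism, stood at 8.64 with RU486 alone and at 11.6, 11.4 and 11.2 with CVZ, COR and ALD. The 3 ligands were thus nearly level on top of RU486, whereas without it they had stood at 45.4, 29.7 and 17.5 over a vehicle of 5.08. The mean difference was 0.40 ± 0.12 (limma adjusted p = 1). A dimmer Klf15 probe set stood at 3.39 and at 4.57, 4.50 and 4.35.

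Rhobtb1 stood at 4.21 with RU486 alone and at 5.84, 7.36 and 6.21 with CVZ, COR and ALD (0.61 ± 0.14, limma adjusted p = 0.56). Rhob stood at 9.20 and at 12.9, 13.3 and 12.7 (0.49 ± 0.14, limma adjusted p = 0.95). Rasgrp1, which activates Ras, stood at 0.469 and at 0.894, 1.19 and 1.05. All 3 were above RU486 alone on each ligand+RU486 array, and Rasgrp1 was dim.

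Tent5b, a poly(A) polymerase gene, stood at 1.19 with RU486 alone and at 1.56, 2.75 and 2.43 with CVZ, COR and ALD (0.83 ± 0.21, limma adjusted p = 0.75). Its RU486 value was itself above the vehicle value of 0.366. A further probe set stood at 0.819 and at 1.77, 1.27 and 1.37, with CVZ highest there and lowest on the first. The order of the ligands at Tent5b therefore differed between probe sets. An unnamed probe set stood at 4.54 with RU486 and at 10.5, 8.89 and 9.86 on top, 2.12-fold above on average (limma adjusted p = 0.24). The vehicle array stood at 1.36 there and the ligands alone at 34.2, 27.7 and 20.4, so RU486 alone was above vehicle and CVZ was highest both with and without RU486.

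**Figure D2:**
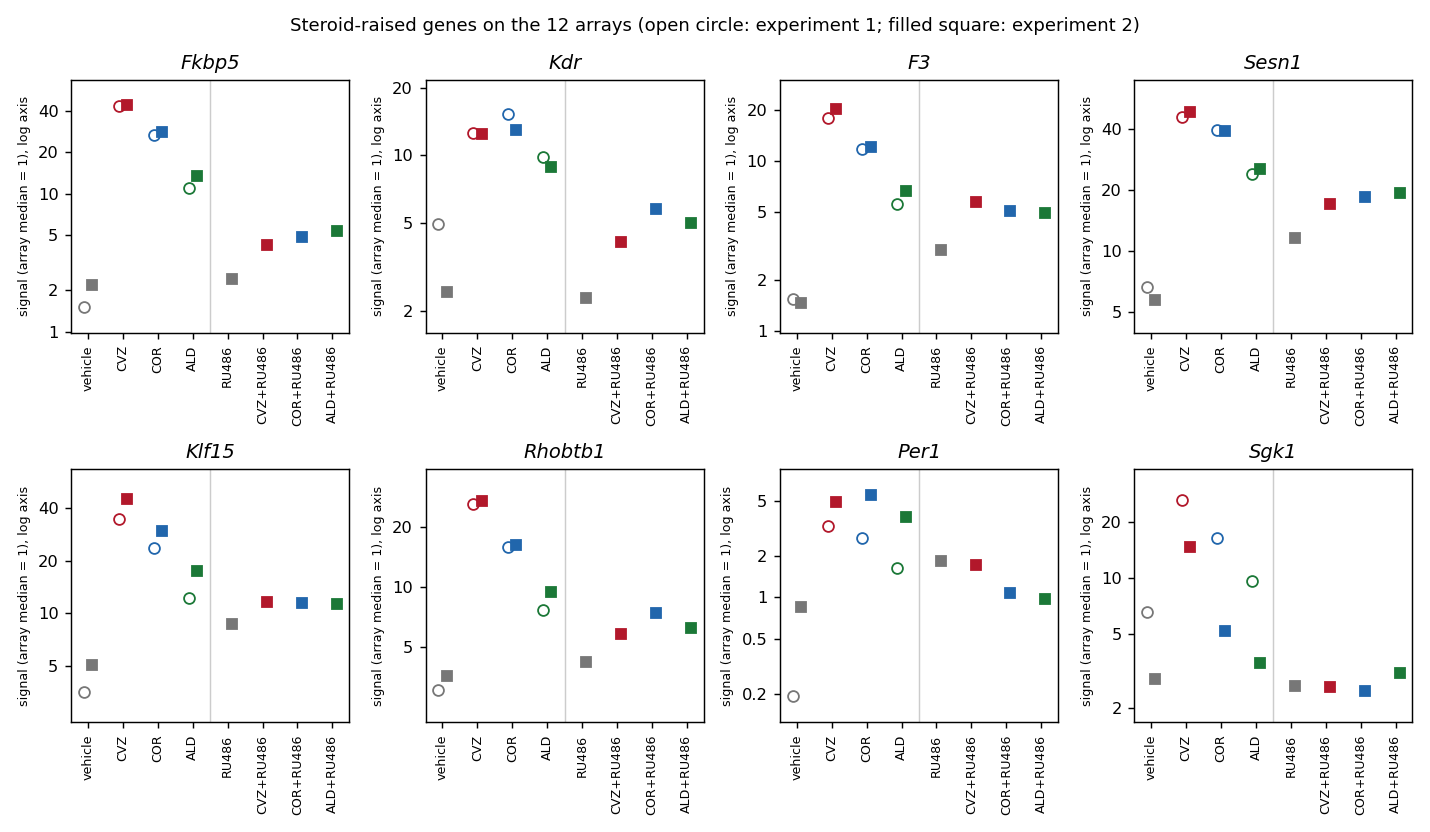
Signals of 8 steroid-raised genes on all 12 arrays, on log axes with the array median at 1. Open circles are the first experiment and filled squares the second, and arrays with RU486 stand right of the grey line. For Fkbp5, Kdr, F3, Sesn1, Klf15 and Rhobtb1 the 3 ligand+RU486 squares lie above the RU486 square, while for Per1 all 3 and for Sgk1 2 of the 3 lie below it.

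Further steroid-raised genes also lay above RU486 on all 3 arrays. Capn10, a calpain protease gene, stood at 1.95 with RU486 and at 2.85, 3.04 and 3.19 on top. Glul, glutamine synthetase, stood at 7.04 and at 8.65, 10.4 and 9.36 on the probe set furthest from RU486, with another 2 probe sets also above on every array. Pdk4, a kinase that holds back glucose oxidation, stood at 6.63 and at 8.39, 8.04 and 9.28. In all, 156 of the 415 named genes raised by the steroids, at 1 probe set each, lay above RU486 with all 3 ligands. Of all probe sets tested 20.8% did so.

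Other strongly raised genes returned to the RU486 level. Orm1, an acute phase protein, stood at 0.381 with RU486 and at 0.412, 0.347 and 0.497 with CVZ, COR and ALD, after 12.3 with CVZ alone. Ptgs2, the inducible cyclooxygenase, stood at 0.983 and at 0.730, 0.830 and 1.07, after 13.5 with CVZ alone. Sgk1, a kinase that both corticosteroid receptors induce, stood at 2.64 and at 2.59, 2.47 and 3.08. These genes straddled RU486 alone.

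Tsc22d3, which codes for the anti-inflammatory protein GILZ, stood at 16.3 with RU486 and at 15.6, 16.2 and 16.6 on top. Per1, a clock gene with a well-studied GR element, stood at 1.84 and at 1.73, 1.07 and 0.973, below RU486 on all 3 arrays (-0.57 ± 0.32, limma adjusted p = 1). Klf9, a Krüppel-like factor, stood at 11.2 and at 12.7, 12.3 and 13.3 on its bright probe set (0.19 ± 0.12, limma adjusted p = 1). Some GR targets thus lay above RU486 alone on all 3 arrays and others did not, but differences between targets were not tested. Over 29 tested GR targets the median with RU486 was 0.10 (all probe sets -0.03), with 7 above and 1 below at an unadjusted p under 0.05 (1.17% and 1.32% of all tested) and 0 called, whereas 26 had been raised without RU486 (3.72% of all tested). Some members of that list were picked with results of these arrays known. Of 18 tested mineralocorticoid receptor targets 8 were above RU486 and 10 below for the mean of the ligands, with a median of -0.01. Of all tested 57.8% lay below, so this list was near the general share.

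The genes of the receptors themselves stayed within their error of RU486 alone. Nr3c1 stood at 10.5 with RU486 and at 10.2, 10.8 and 9.77 with CVZ, COR and ALD, a mean difference of -0.03 ± 0.14. Nr3c2 stood at 2.58 and at 2.44, 2.53 and 2.87, a mean difference of 0.02 ± 0.27. Without RU486 Nr3c1 had fallen by 0.48 on the log2 scale (limma adjusted p = 0.0078).

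Each ligand's own set of raised genes was also followed. CVZ alone raised 889 probe sets with a median of 0.98, and with RU486 their median was -0.01, with 30 above RU486 at an unadjusted p under 0.05 (3.37%, against 0.897% of all tested). COR raised 454 with a median of 0.98, and with RU486 their median was 0.12, with 54 above (11.9%, against 1.22%). ALD raised 162 with a median of 0.86, and with RU486 their median was 0.22, with 42 above (25.9%, against 0.972%). Below RU486 at the same threshold were 22 of the CVZ set (2.47%), 6 of the COR set (1.32%) and 1 of the ALD set (0.617%). Of all tested, 1.95%, 1.14% and 1.29% lay below in this way. At any size of difference 48.5%, 71.6% and 87% of the sets lay above RU486, against 40.1%, 48.9% and 43.5% of all tested. The sets differ in size and in which genes they hold, and the difference between ligands was not tested. Their unadjusted p-values share their spread with the choice of the sets. Over the 692 probe sets raised by the mean of the ligands the medians with RU486 were 0.00 for CVZ, 0.08 for COR and 0.07 for ALD.

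Over the 692 probe sets raised by the mean of the ligands, the CVZ+RU486 array was the lowest of the 3 at 378, COR+RU486 at 143 and ALD+RU486 at 171. Over all 18625 tested the counts were 7669, 4714 and 6242, so that the CVZ+RU486 array was also the most often lowest in general. Arrdc2, an arrestin-domain gene, is an example, at 0.918 with RU486 and at 1.10, 2.24 and 1.44 with CVZ, COR and ALD. Spata13, a guanine nucleotide exchange factor, is another, at 1.15 and at 1.18, 2.17 and 1.93. Pim3, a survival kinase, had the opposite order, at 6.43 and at 8.92, 8.44 and 6.89.

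A choice made in the first experiment alone gave a check that used no array of the second. There 713 probe sets were at least 2-fold above vehicle with CVZ, and their median was 0.93 in the second experiment and 0.04 with RU486. For 505 chosen with COR the medians were 0.52 and 0.10, and for 357 chosen with ALD they were 0.17 and 0.07. At least 2-fold above RU486 alone were 2.24% of the CVZ set (0.677% of all tested), 3.56% of the COR set (0.693%) and 4.76% of the ALD set (0.634%). At any size 55.5%, 60% and 56.3% lay above, against 40.1%, 48.9% and 43.5% of all tested. Of sets chosen as falls, 2.82%, 1.55% and 3.54% lay at least 2-fold below (0.736%, 0.655% and 0.634% of all tested). At any size 60.7%, 61.6% and 55.9% of the falls lay below, against 59.9%, 51.1% and 56.5%. A 2-fold excess can thus occur without an excess in direction, as in the ALD falls. Across all 18625 probe sets Pearson's r between the response in the first experiment and that with RU486 was 0.07 for CVZ, 0.09 for COR and 0.08 for ALD, against 0.47, 0.31 and 0.13 with the second experiment without RU486. Probe sets are not independent replicates, and these values describe the arrays only.

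Genes lowered by the steroids also lay below RU486 alone more often than other genes did. Of the 321 lowered by the mean of the ligands, 188 lay below RU486 alone with all 3 (58.6%, against 31.6% of all tested), and the median was -0.12 with RU486 after -0.61 without. Id2, an inhibitor of helix-loop-helix factors, stood at 5.48 with RU486 and at 3.85, 4.07 and 3.66 with CVZ, COR and ALD (-0.50 ± 0.17, limma adjusted p = 1), while a dimmer Id2 probe set stood at 1.26 and at 1.33, 1.28 and 1.25. Adra1b, an adrenergic receptor of cardiomyocytes, stood at 13.0 and at 9.49, 10.6 and 10.5. Adra1b and the brighter Id2 probe set were below RU486 on all 3 arrays, and the dimmer Id2 probe set was not.

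Irx4, a ventricular transcription factor, stood at 39.4 with RU486 and at 33.2, 32.5 and 31.6 with CVZ, COR and ALD. Without RU486 it had stood at 31.1 with vehicle and at 9.48, 20.6 and 26.1 with the ligands. Ccl2, the chemokine that draws in monocytes, stood at 12.4 and at 8.18, 12.2 and 11.3, so all 3 arrays lay below and the CVZ+RU486 array lay furthest. The CVZ difference of Ccl2 was -0.60 ± 0.27 with RU486 (limma adjusted p = 1) and -2.75 ± 0.19 without.

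Genes at least 2-fold from RU486 alone with all 3 ligands made up a different group. There were 42 above (0.226%), of 27 named genes, and 2 below (0.0107%). The filter on low values used the mean over all 12 arrays. It passes a dim probe set that is low on the RU486 array alone more easily than one high there alone, so the balance of these counts is not a result. For comparison, 126 probe sets were at least 2-fold above with CVZ alone on top (0.677%), 129 with COR (0.693%), 118 with ALD (0.634%) and 85 for their mean (0.456%), while below were 137 (0.736%), 122 (0.655%), 118 (0.634%) and 37 (0.199%). At 36 of the 42 the RU486 array was the lowest of the 8 arrays of the second experiment (85.7%, against 8.35% of all tested). At 40 of the 42 the RU486 signal was below the level of the filter on low values. The median signal was 0.208 on the RU486 array and 0.761 on the vehicle array. Of the 42, 3 had also been raised by the steroids without RU486 (7.14%, against 3.72% of all tested).

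Nos2, the inducible nitric oxide synthase, had the largest mean difference of the named genes. It stood at 0.184 with RU486 and at 1.36, 1.49 and 1.65 with CVZ, COR and ALD, but at 0.836 with vehicle and at 0.188 with CVZ alone (2.62 ± 0.72, limma adjusted p = 0.95). Eci1, an enzyme of fatty acid oxidation, stood at 0.0876 and at 0.930, 0.578 and 1.15 on a dim probe set, while its bright probe set stood at 42 and at 37.6, 42.9 and 38.6. Ring1, a Polycomb protein, stood at 0.153 and at 0.916, 0.798 and 1.11, while its other probe set stood at 1.38 and at 1.69, 1.17 and 1.15. For Eci1 and Ring1 the probe sets of a gene disagreed.

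Smc4, a condensin subunit, was the brightest of the 42 on the RU486 array, at 1.23 with RU486 and at 2.72, 2.82 and 2.54 on top, over a vehicle of 1.9. Its other probe set stood at 0.746 and at 0.563, 0.891 and 0.223, so here too the probe sets disagreed. Hrct1 and Eps8l2 were the 2 below. Hrct1 stood at 0.777 with RU486 and at 0.10, 0.334 and 0.0852, and Eps8l2, a regulator of actin, at 1.38 and at 0.638, 0.538 and 0.264. With 1 probe set per gene 22 remained in all, and among probe sets above the 60th percentile of mean signal 1 did.

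**Figure D3:**
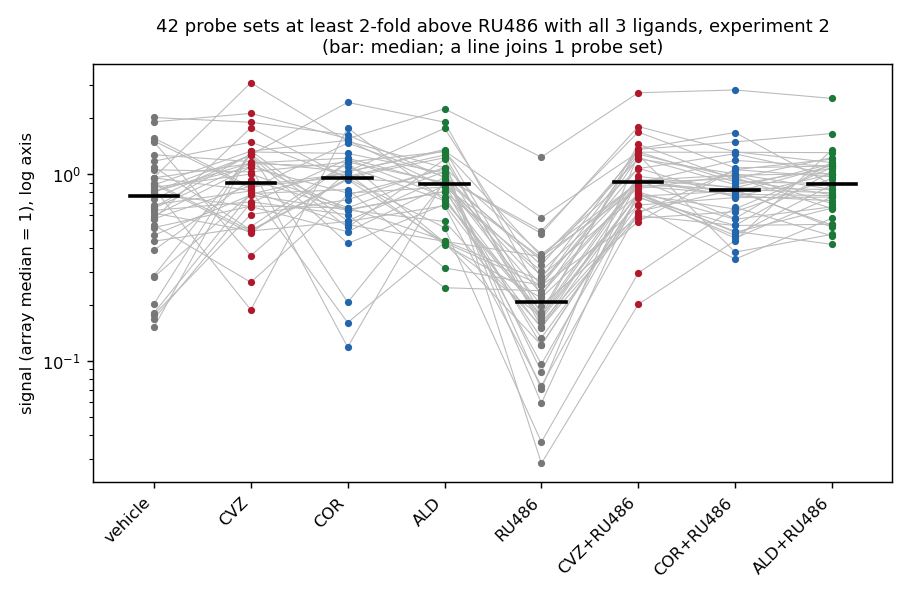
Signals of the 42 probe sets at least 2-fold above RU486 alone with all 3 ligands, on the 8 arrays of the second experiment, on a log axis with the array median at 1. Black bars are medians and each grey line joins 1 probe set. The RU486 array has the lowest median, 0.208, below the 0.761 of the vehicle array.

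Sh2b1, an adaptor of insulin and cytokine receptors, was a bright gene with this form. It stood at 7.21 with RU486 and at 15, 13.1 and 13.4 with CVZ, COR and ALD, against 9.14 with vehicle (0.93 ± 0.17, limma adjusted p = 0.24). Without RU486 its mean difference from vehicle was 0.16 ± 0.12 (limma adjusted p = 0.60), and a dimmer Sh2b1 probe set stood at 4.99 and at 5.51, 4.71 and 4.37. Taking the 3 ligand+RU486 arrays as replicates of each other called Sh2b1, Nos2 and the unnamed probe set described beside Tent5b (limma adjusted p = 0.023 for each). That fit takes its spread from the 3 ligand+RU486 arrays and so leaves out any spread of RU486 alone.

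Among probe sets that passed the filter on low values, those that stood apart with 1 ligand only were more often low than high. That filter, on the mean over all 12 arrays, favours this balance. A dim probe set low on 1 array passes it more easily than one high on 1 array. With CVZ 9 were at least 2-fold above RU486 and under log2 0.5 from it with both other ligands (0.0483%), and 56 were below (0.301%). With COR the counts were 7 (0.0376%) and 40 (0.215%), and with ALD 9 (0.0483%) and 42 (0.226%). The test of 1 ligand against the mean of the other 2, which does not use the RU486 array, called 1 probe set for CVZ (0.00537%), 0 for COR (0%) and 0 for ALD (0%). An unadjusted p under 0.05 was reached at 423 (2.27%), 385 (2.07%) and 311 (1.67%), again less than that threshold would pass with no response. Most genes that stood apart with 1 ligand only were near or below the array median.

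Cebpd was the gene called for CVZ in both tests. It codes for C/EBP delta, a transcription factor of inflammation and fat cell formation that glucocorticoids induce. It stood at 1.40 with RU486 alone, 0.159 with CVZ+RU486, 1.41 with COR+RU486 and 2.20 with ALD+RU486. The CVZ+RU486 array was thus 6.44-fold below RU486 alone (-2.69 ± 0.33, limma adjusted p = 0.014) and 8.0-fold below the other 2 ligands with RU486 (-3.0 ± 0.29, limma adjusted p = 0.00052). Without RU486 CVZ had raised Cebpd by 1.53 ± 0.24 (limma adjusted p = 0.00041), from 0.807 to 3.36 in the second experiment.

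Cebpd did not have this form on its other probe set. That probe set stood at 0.545 with RU486 and at 0.373, 0.663 and 0.621 with CVZ, COR and ALD (-0.47 ± 0.58 for CVZ). The call against RU486 alone was lost with a larger pseudocount (adjusted p = 0.061 in limma), with no filter on low values (adjusted p = 0.13 in limma), with no block for the experiment and with no variance trend, while the difference kept its sign. The low value is that of 1 array.

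Further genes low with CVZ only were Nifk, a nucleolar protein, at 0.754 with RU486 and 0.0780 with CVZ+RU486 against 0.865 and 0.896 with COR and ALD (limma adjusted p = 0.098 against the other 2 ligands). Irak3, an inhibitor of Toll-like receptor signalling, stood at 0.941 and at 0.111, 1.33 and 0.709. Cxcl3, a chemokine of neutrophils, stood at 0.723 and at 0.109, 0.958 and 1.01 on 1 probe set and at 1.20 and at 0.437, 1.28 and 1.00 on another. Both Cxcl3 probe sets were thus lowest on the CVZ+RU486 array.

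With COR only, Bcl2l1, which codes for the survival protein Bcl-xL, stood at 3.99 with RU486 and at 4.78, 1.5 and 3.55 with CVZ, COR and ALD. COR+RU486 was 2.66-fold below the other 2 ligands (-1.41 ± 0.22, limma adjusted p = 0.083), while COR alone had raised it from 2.47 to 5.38 in that experiment. Acot7, an acyl-CoA thioesterase, stood at 1.87 and at 1.95, 4.29 and 2.05 (1.08 ± 0.24 against the other 2 ligands, limma adjusted p = 0.95). These 2 genes were above the array median, unlike most of this group.

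With ALD only, Rcc1, a chromatin-bound exchange factor for Ran, stood at 2.41 with RU486 and at 1.92, 2.25 and 0.797 with CVZ, COR and ALD (-1.31 ± 0.29 against the other 2 ligands, limma adjusted p = 0.82). Ltbp2, a matrix protein, stood at 1.22 and at 1.45, 1.13 and 0.313. Arhgef40 was high at 2.84 against 1.27 with RU486 and 1.54 and 1.78 with CVZ and COR. The unnamed probe set called with ALD stood at 1.69 with RU486 and at 0.552, 1.53 and 0.223, so it was low with CVZ as well (-2.59 ± 0.35 for ALD, limma adjusted p = 0.037). Its call was lost under quantile normalization and trimmed-mean scaling, among other settings.

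Most genes of sterol synthesis lay below their control with CVZ, with RU486 and without it. These enzymes build cholesterol from acetyl-CoA through the mevalonate pathway and are jointly controlled by the transcription factor SREBP-2. Of 19 tested genes 17 lay below RU486 alone with CVZ (59.9% of all tested did), 10 at an unadjusted p under 0.05 (1.95%) against 1 above (0.897%), and 0 were called (limma). The median was -0.39 (all tested -0.05), and for COR and ALD on top of RU486 it was -0.22 and -0.16, again with 17 below each, in comparisons that share the RU486 array. Against the other 2 ligands with RU486, which leaves that array out, the median for CVZ was -0.25 with 16 below (57.1% of all tested). This list was chosen with results of these arrays known, so its direction is not independent evidence.

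Without RU486 CVZ had lowered 6 of the 19 at an adjusted p under 0.05 (limma; 3.19% of all tested), with a median of -0.24. The median difference between the CVZ response with and without RU486 was -0.04, and 2 of the 19 differed at an unadjusted p under 0.05, a share near the 10.1% of all tested. The CVZ+RU486 array was the lowest of the 4 RU486 arrays at 13 of the 19 (68.4%, against 33.4% of all tested), and the CVZ array was the lowest of the 4 without RU486 at 14 in the second experiment and 17 in the first.

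Msmo1, a sterol C4-methyl oxidase, had the smallest p-value of them. It stood at 32.0 with RU486 alone and at 17.8, 29.0 and 26.2 with CVZ, COR and ALD. Without RU486 it stood at 25.7 with vehicle and at 13.8, 22.1 and 26.3 in the second experiment, and at 42.6 and at 26.1, 39.4 and 43.3 in the first. The CVZ array was thus the lowest in all 3 series. The CVZ difference was -0.85 ± 0.13 with RU486 (limma adjusted p = 0.084) and -0.80 ± 0.09 without (limma adjusted p = 2.1e-05), and their own difference was -0.05 with a 95% interval of -0.39 to 0.29. Among probe sets above the 60th percentile the adjusted p of Msmo1 was 0.032 (limma).

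Insig1, which keeps SREBP-2 in the endoplasmic reticulum when sterols are plentiful, stood at 23.6 with RU486 and at 13.6, 18.4 and 20.1 with CVZ, COR and ALD (-0.79 ± 0.16 for CVZ, limma adjusted p = 0.36). Sqle, squalene epoxidase, stood at 10.4 and at 6.37, 8.32 and 8.88 (-0.70 ± 0.19, limma adjusted p = 0.93). Cyp51, lanosterol demethylase, stood at 58.8 and at 41, 48.4 and 51.8 (-0.52 ± 0.13, limma adjusted p = 0.70). In these 3 genes CVZ was lowest and RU486 alone highest among the RU486 arrays. For Insig1 the vehicle array of that experiment stood at 17.0, below RU486 alone. Without RU486 CVZ differed from vehicle at Insig1 by -0.19 ± 0.12 over both experiments (limma adjusted p = 0.44). The CVZ response with RU486 minus that without was -0.60 ± 0.20 for Insig1, -0.28 ± 0.23 for Sqle and -0.01 ± 0.16 for Cyp51.

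Fdps, farnesyl diphosphate synthase, stood at 55.9 with RU486 and at 42.7, 47.7 and 48.3. Idi1, isopentenyl diphosphate isomerase, stood at 20.7 and at 16.0, 17.8 and 18.2, and its dimmer probe set at 11.9 and at 8.27, 9.22 and 9.68. The exceptions were Pmvk, phosphomevalonate kinase, at 4.18 with RU486 and 6.26 with CVZ+RU486, and Mvk, mevalonate kinase, at 1.84 and 2.42.

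**Figure D4:**
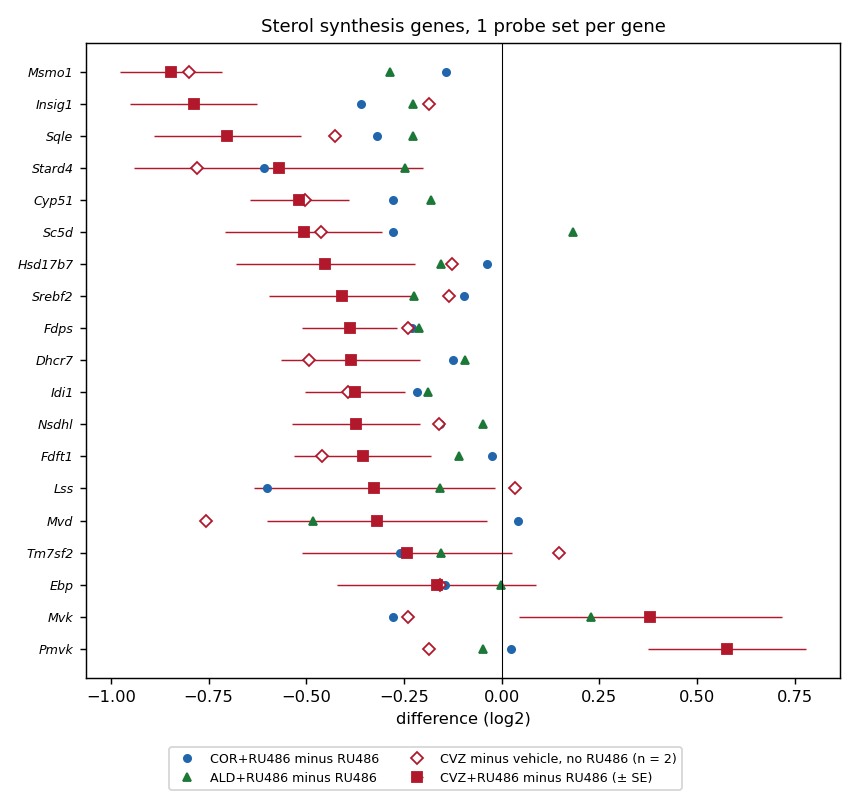
Log2 differences of the 19 tested sterol synthesis genes, 1 probe set per gene. Filled red squares with standard errors are CVZ+RU486 minus RU486, blue circles and green triangles the same for COR and ALD, and open red diamonds are CVZ minus vehicle without RU486 (n = 2). At 17 of 19 genes the red square lies left of 0, and for Msmo1, Cyp51 and Idi1 the filled and open red symbols nearly coincide.

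Because most of these genes lay below RU486 alone together, their promoters were read from RefSeq (build GRCr8), as the 250 bases before and 50 after each start site. Promoters of sterol genes are known to carry CCAAT boxes, bound by NF-Y, beside sites for SREBP. Of the 19 genes 15 had an entry, and CCAAT was present on either strand at 13 (86.7%, against 37.7% of all 27457 promoters). The SREBP motif TCACNCCAC was found in 0 of 15 (1.13% of all) and the glucocorticoid response element core (GNACA and TGTNC with any 3 bases between) in 0 of 15 (0.422% of all). A match is a run of letters and not a bound site. The 250 bases before the start of Msmo1 (chr16:29746863-29747112, + strand) and of Idi1 (chr17:66547525-66547774, - strand) are printed to show these boxes, in capitals, as CCAAT in Msmo1 and as ATTGG, its other strand, in Idi1.
Msmo1: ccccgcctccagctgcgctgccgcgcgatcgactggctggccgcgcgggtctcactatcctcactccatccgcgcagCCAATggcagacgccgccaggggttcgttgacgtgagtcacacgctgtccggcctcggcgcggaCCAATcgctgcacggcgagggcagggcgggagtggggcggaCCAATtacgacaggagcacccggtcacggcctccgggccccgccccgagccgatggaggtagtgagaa
Idi1: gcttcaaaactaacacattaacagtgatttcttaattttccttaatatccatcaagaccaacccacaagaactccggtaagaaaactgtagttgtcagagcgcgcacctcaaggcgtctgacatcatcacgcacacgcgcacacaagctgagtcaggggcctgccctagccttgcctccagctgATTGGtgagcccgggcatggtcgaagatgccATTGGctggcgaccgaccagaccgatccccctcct

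The same search was made in the 20 named steroid-raised genes furthest above RU486 by the smallest of the 3 ligand differences, 16 of which had an entry. CCAAT was present in 8 of the 16 (50%, against 37.7% of all promoters) and the SREBP motif in 1 (6.25%, against 1.13%). The shorter run TGTTCT, a part of the glucocorticoid response element, was in 1 (6.25%, against 20.1%). The glucocorticoid response element core was found in 1 of them, Eva1c (6.25%, against 0.422%). With 1 match no enrichment can be read from this. The match is the 13 bases at chr11:43575626-43575638 (+ strand), just after the start site of Eva1c. They are printed in capitals because the whole run is the match.
Eva1c: GAACACTTTGTGC
Eva1c, which codes for a membrane protein, was dim. It stood at 0.367 with RU486 and at 0.813, 0.546 and 0.909 with CVZ, COR and ALD (0.89 ± 0.48, limma adjusted p = 1).

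Genes of heart muscle lay slightly below RU486 with the ligands. All 14 measured cardiomyocyte markers and all 15 fetal and hypertrophy genes had a mean difference below 0, with medians of -0.13 and -0.16 (all tested -0.03, with 57.8% below 0), and 15 of 16 ion channel and calcium handling genes did, with a median of -0.10. None was called (0 by limma), and 4, 4 and 0 lay below at an unadjusted p under 0.05 (1.32% of all tested). After quantile normalization 10 of the 14 and 14 of the 15 were below 0, with medians of -0.02 and -0.08. These differences all share the RU486 array and were smaller with that scaling, and their cause was not tested. Fewer muscle cells and less RNA per muscle cell cannot be told apart in such samples.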

How the data were processed

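RNA of 12 cultures was measured on Affymetrix rat arrays of 31099 probe sets. The deposited values are MAS5 signal intensities, made by the authors per the labels' processing notes. They came already divided by each array's median and were not divided again here. The 57 control probe sets were left out and log2(signal + 0.0696) was taken, the pseudocount being the 10th percentile. Probe sets above the 40th percentile of mean log2 were kept. Of 31042 probe sets 20826 had 1 gene symbol, 436 several and 9780 none, and only those with 1 were named.

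limma 3.58.1 (R 4.3.3) was fitted to 8 groups with the experiment as a block and a trended variance prior (3 residual and 12.2 prior degrees of freedom), with an adjusted p under 0.05 as the threshold. The replicate number in the labels is the experiment, and deviations of arrays of 1 experiment correlated at 0.512 to 0.567, so the block was kept. With 1 array in each RU486 group, the number of arrays limits the precision.

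Named genes were up to 10 rises and 10 falls per comparison, up to 10 each way for all 3 ligands, up to 6 each way for 1 ligand only, list members past the threshold or of highest signal, and 7 genes always shown. Where a gene had several probe sets, the one of highest mean led and others are given where they differ. The steroid-raised and steroid-lowered genes, other probe sets and the unnamed probe sets were chosen after their values were seen. The members and the 26 gene lists were chosen with earlier results of these data known. The fit was tested on simulated data with changes of known size. Alternatives were the pseudocount, the filter, quantile and trimmed-mean scaling, no block, no trend, the RU486 arrays alone, other fold thresholds and each array left out. Motifs were searched on both strands of RefSeq promoters (build GRCr8).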

Additional observations from a re-analysis of the deposited data

Results flagged for a closer look

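The response to a ligand differed with and without RU486, by the interaction term of limma's fit, at 455 probe sets for CVZ, 91 for COR, 15 for ALD and 203 for the mean of the 3 ligands. Cebpd was singled out because its CVZ+RU486 array differed from the other 2 ligands with RU486 by a log2 of -3.0 (limma adjusted p = 0.00052).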

How the results depend on the processing

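Of 670 recomputed values 567 kept their direction and their side of the threshold or stayed near the main value, 80 moved, 12 lost and 11 gained a call, and 0 reversed; the cause was not tested unless stated. With the pseudocount at the 5th percentile 2 probe sets were called for ALD+RU486 against RU486. At the 25th percentile 0 were called for CVZ+RU486 and 0 for ALD+RU486, and 13 (main 44) lay at least 2-fold from RU486 with all 3 ligands and 94 (main 163) with 1 only. With no filter on low values those counts were 0, 0, 767 and 1600, and the response differed with RU486 at 55 for COR and 9 for ALD. Above the 60th percentile they were 4, 0, 1 and 10, with 2 called for CVZ and 1 for ALD against the other ligands, and a median of 0.37 with RU486 (main 0.07) for genes chosen with ALD in the first experiment. Quantile normalization gave 0 for ALD+RU486, 2 for the mean of the ligands and 48.1% of steroid-raised probe sets above RU486 with all 3 (main 39.5%), and trimmed-mean scaling gave 0 and 47.3%. Without the replicate block 0 were called for CVZ+RU486, ALD+RU486, CVZ against the other ligands and all 4 differences of response, 98 (main 1013) for the ligands against vehicle, and the share was 70.7%. Without the variance trend the counts were 0 for the same comparisons and 264, and the share was 55.2%. With the RU486 arrays alone 3 were called for the mean. At 1.5-fold the fold counts were 219 and 1450, at 3-fold 13 and 39, and with 1 probe set per gene, added after seeing the data, 22 and 56.

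Leaving out 1 array at a time gave 1 to 5 calls for CVZ+RU486, 0 to 0 for COR+RU486, 0 to 2 for ALD+RU486 and 0 to 3 for the mean against RU486. The highest of each came without the vehicle array of the second experiment, for the mean also without that of the first. Against the other ligands it gave 1 to 2 for CVZ (2 without the ALD array of the second experiment), 0 to 0 for COR and 0 to 1 for ALD (1 without the CVZ array of the second). The response differed with RU486 at 376 to 499 for CVZ, 43 to 116 for COR, 14 to 17 for ALD and 54 (without CVZ+RU486) to 355 (without ALD+RU486) for the mean, and the ligands against vehicle gave 635 to 1016. The shares above RU486 with all 3 ligands were 38.5% to 52.9%, and 48.6% to 80.5% for the 4-fold set; with a ligand+RU486 array left out only 2 arrays had to lie above. The sterol medians stayed at -0.39 and -0.25.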
